A study of Homo sapiens with 6 samples.

Results

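The genes described here are the ligands, receptors and latent binding proteins of TGF-beta signalling, together with PMEPA1, a feedback inhibitor of the pathway. They are known members of the pathway, picked with earlier results of these arrays known. All probe sets, the array's groups of short probes against a transcript, whose only annotated gene is TGFB1, TGFB2, TGFBR1, TGFBR2, TGFBR3, LTBP1, LTBP2, LTBP3, LTBP4 or PMEPA1 were taken. These are 10 of 19775 genes named on the array, with 28 probe sets. The cells were NCI-H292, an established line from a human mucoepidermoid lung carcinoma, grown in DMEM complete medium with 10% FBS. In the CT45A1 overexpression group the cells stably carried CT45A1-Venus, a fusion of CT45A1 to a fluorescent protein. In the CT45A1 negative group they carried the Venus vector. CT45A1 belongs to a family of cancer/testis antigens, genes normally active mainly in testis. Each group had 3 replicates, each measured on 1 array from total RNA. The labels give neither whether the replicates were separate cultures nor whether each line was a clone or a pool. The p-values therefore reflect array-to-array spread alone, possibly technical, and the number of arrays limits their precision.

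TGF-beta ligands are secreted with their own propeptide still wrapped around them, and in this latent form they cannot bind receptors. Latent TGF-beta binding proteins (LTBPs) attach the complex to the matrix, from which integrins or proteases free the ligand. The freed ligand binds TGFBR2, which recruits and phosphorylates TGFBR1, and TGFBR1 then phosphorylates SMAD2 and SMAD3. TGFBR3 (betaglycan) has no kinase and presents ligand, above all TGFB2, to TGFBR2. In airway epithelium the pathway is known for growth arrest, matrix production and loss of epithelial features.

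The upstream sequences of the genes with a probe set past the test's threshold are shown first, because the calls below are at these genes, and that of TGFB1 is shown beside them as the ligand whose transcript did not pass. Each is the 250 bases before the transcription start in RefSeq's table for GRCh38.p14, read 5′ to 3′ along the gene. The table held 25 such windows for the 10 genes. For LTBP1, which has a start for its long form and others further into the gene, the windows of the long form and of the first inner start are given. For LTBP3 and TGFBR2 the outermost window of 2 is given. Capitals mark matches to 6 short motifs, and a match on the opposite strand appears as its reverse complement. No marked matches overlap each other.
TGFB2, chr1:218345086-218345335, plus strand: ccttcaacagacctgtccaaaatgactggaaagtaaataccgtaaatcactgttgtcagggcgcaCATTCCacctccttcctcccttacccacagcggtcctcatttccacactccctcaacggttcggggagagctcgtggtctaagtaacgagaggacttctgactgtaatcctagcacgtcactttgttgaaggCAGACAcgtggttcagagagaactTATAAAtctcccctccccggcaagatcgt
TGFB1, chr19:41353923-41354172, minus strand: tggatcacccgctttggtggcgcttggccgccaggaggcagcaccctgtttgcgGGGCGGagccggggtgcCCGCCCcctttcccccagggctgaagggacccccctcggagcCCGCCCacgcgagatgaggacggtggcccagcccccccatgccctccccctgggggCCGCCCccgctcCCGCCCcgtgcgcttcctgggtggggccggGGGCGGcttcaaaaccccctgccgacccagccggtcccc
TGFBR2, chr3:30606106-30606355, plus strand: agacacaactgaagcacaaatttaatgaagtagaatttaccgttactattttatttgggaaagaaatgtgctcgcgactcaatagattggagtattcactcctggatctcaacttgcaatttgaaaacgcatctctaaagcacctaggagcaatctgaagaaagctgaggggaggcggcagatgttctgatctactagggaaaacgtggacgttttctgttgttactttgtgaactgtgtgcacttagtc
TGFBR3, chr1:91886152-91886401, minus strand: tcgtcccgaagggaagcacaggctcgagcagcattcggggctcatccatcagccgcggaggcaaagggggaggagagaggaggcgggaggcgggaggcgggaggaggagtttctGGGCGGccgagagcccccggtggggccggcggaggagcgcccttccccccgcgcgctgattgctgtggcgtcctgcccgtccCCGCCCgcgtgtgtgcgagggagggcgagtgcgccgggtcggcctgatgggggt
LTBP1 long form, chr2:32946703-32946952, plus strand: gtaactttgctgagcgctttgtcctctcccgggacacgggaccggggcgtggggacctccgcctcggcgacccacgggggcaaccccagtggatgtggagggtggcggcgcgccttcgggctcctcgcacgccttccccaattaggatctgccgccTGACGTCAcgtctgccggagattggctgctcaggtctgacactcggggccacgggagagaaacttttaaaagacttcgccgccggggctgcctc
LTBP1 inner start, chr2:33134119-33134368, plus strand: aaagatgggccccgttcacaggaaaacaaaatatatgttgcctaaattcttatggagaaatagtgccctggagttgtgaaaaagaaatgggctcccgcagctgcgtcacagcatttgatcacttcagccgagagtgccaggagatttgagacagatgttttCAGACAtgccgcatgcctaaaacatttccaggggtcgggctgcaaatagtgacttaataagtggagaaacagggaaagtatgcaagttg
LTBP3, chr11:65558360-65558609, minus strand: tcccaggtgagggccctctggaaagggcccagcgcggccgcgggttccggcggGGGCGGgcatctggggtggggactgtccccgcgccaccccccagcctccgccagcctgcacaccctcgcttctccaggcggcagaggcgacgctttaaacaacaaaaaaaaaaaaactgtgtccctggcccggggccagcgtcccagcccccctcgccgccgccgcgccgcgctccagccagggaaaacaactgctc

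Each motif was compared with the 35116 windows of all genes, on both strands except for the TATA box. The SMAD-binding CAGA box was searched as CAGACA and occurred in 13.6% of all windows. The cyclic AMP response element, searched as TGACGTCA, occurred in 1.65%. The AP-1 site, searched as TGACTCA, occurred in 4.20%. The GC box, searched as GGGCGG, occurred in 42.6%. The TEAD site, searched as GGAATG, occurred in 11.9%. The TATA box, searched as TATAAA on the gene's strand, occurred in 6.80%. The TGFB2 window held a CAGA box beginning 53 bases before the start, a TATA box at 29 bases and a TEAD site at 185 bases. The window of the LTBP1 long form held a cyclic AMP response element at 94 bases, and that of the inner start a CAGA box at 89 bases. The LTBP3 window held 1 GC box and the TGFBR3 window held 2. The TGFB1 window held 6 GC boxes and none of the other motifs. The outer TGFBR2 window held no match, which says only that these letters are not in it, and the window of its other start held 2 GC boxes, at 198 and 80 bases. GC content was 50.4% in the TGFB2 window and 76.8% in the TGFB1 window, beside a median of 58.0% over all windows. These matches describe the sequence, and nothing was measured at them here.

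The arrays of the 2 groups differed in points that touch every result below. The median signal was 79.2 to 83.3 on overexpression arrays and 72.6 to 75.6 on negative arrays, although a 2% trimmed mean was 500.1 on all 6. Centring each array on its median therefore moves all log2 differences down by 0.14. The actin 3′/5′ ratio, which compares the signals of probe sets at the ends of the actin transcript and is sensitive to RNA breakdown and short labelling, was 1.42 to 1.55 on overexpression arrays and 1.64 to 1.91 on negative arrays, with no overlap, so the design partly confounds it with the groups. The GAPDH 3′/5′ ratio was 0.969 to 1.04 on overexpression arrays and 1.05 to 1.18 on negative arrays, also with no overlap. The probe sets for the CT45 family, each of which matches 9 CT45 genes, had signals of 445 to 700 and 154 to 207 on overexpression arrays, against 1.95 to 23.1 and 2.27 to 36.3 on negative arrays. All 10 epithelial marker genes had a tested probe set, and their summed signal was 95000 to 96500 on overexpression arrays and 97000 to 104000 on negative arrays. Of these markers KRT18 fell by 0.25 at 1 probe set (limma adjusted p = 0.0393), and no other probe set of the list passed. Of 10 fibroblast markers, 1 (FAP) had a tested probe set, and 27 of the list's 31 probe sets lay below the median on all arrays. The fibroblast sum was 1840 to 2390 on overexpression arrays and 1390 to 2000 on negative arrays. Of 5 endothelial markers, 2 were tested, and 7 of the list's 11 probe sets lay below the median on all arrays. The sum over all 11 was 687 to 721 on overexpression arrays and 470 to 590 on negative arrays. Of 6 leukocyte markers, 1 was tested, and 7 of the list's 9 probe sets lay below the median on all arrays. The sum over all 9 was 265 to 389 on overexpression arrays and 229 to 320 on negative arrays. No marker signal was exactly 0.

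In CT45A1 overexpression cells, transcripts of the ligand TGFB2 and of the latent binders LTBP1 and LTBP3 were higher at part of their probe sets, and those of the receptors TGFBR2 and TGFBR3 were lower at 1 probe set each. The signals are MAS5 values, a linear intensity, and differences are given as log2 overexpression minus log2 negative. Probe sets were tested with limma where 3 or more arrays had a signal over the array's own median, and past the threshold means an adjusted p under 0.05 after Benjamini-Hochberg adjustment over all 27618 tested probe sets. Of the 28 probe sets of these genes, 21 were tested, 4 were higher, 2 were lower and 15 did not pass. Over all tested probe sets 892 passed (3.23%), 522 of them higher (1.89%) and 370 lower (1.34%). With arrays centred on their medians the series-wide split turned to 387 higher and 2588 lower, and the 6 probe sets here still passed. Their direction could not have turned, since centring moves all differences down by 0.14 and the smallest rise among them was 0.54. The 6 calls are 28.6% of the 21 probe sets, 19.0% higher and 9.52% lower. The count was 2 without overexpression replicate 1, overexpression replicate 2 or negative replicate 1, and 3 without negative replicate 2. At 9 of the 21 (42.9%) the groups did not overlap, against 26.6% of all tested probe sets. At least 1 probe set passed for 5 of the 9 genes tested, against 5.32% of all genes tested, and genes with several probe sets have more chances to be counted. The median difference was 0.11 over the 21 probe sets and 0.03 over all tested. Centring on the array medians brought that of the 21 to -0.04 and moved that over all tested down by the same 0.14. Of the 6 calls, 4 were at probe sets whose names end in _s_at, which can match several transcripts, and without such probe sets and those ending in _x_at 2 of 10 passed (TGFBR2 and TGFBR3). None of these counts says that the genes stand apart, since they were chosen with earlier results of these arrays known.

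**Figure D1:**
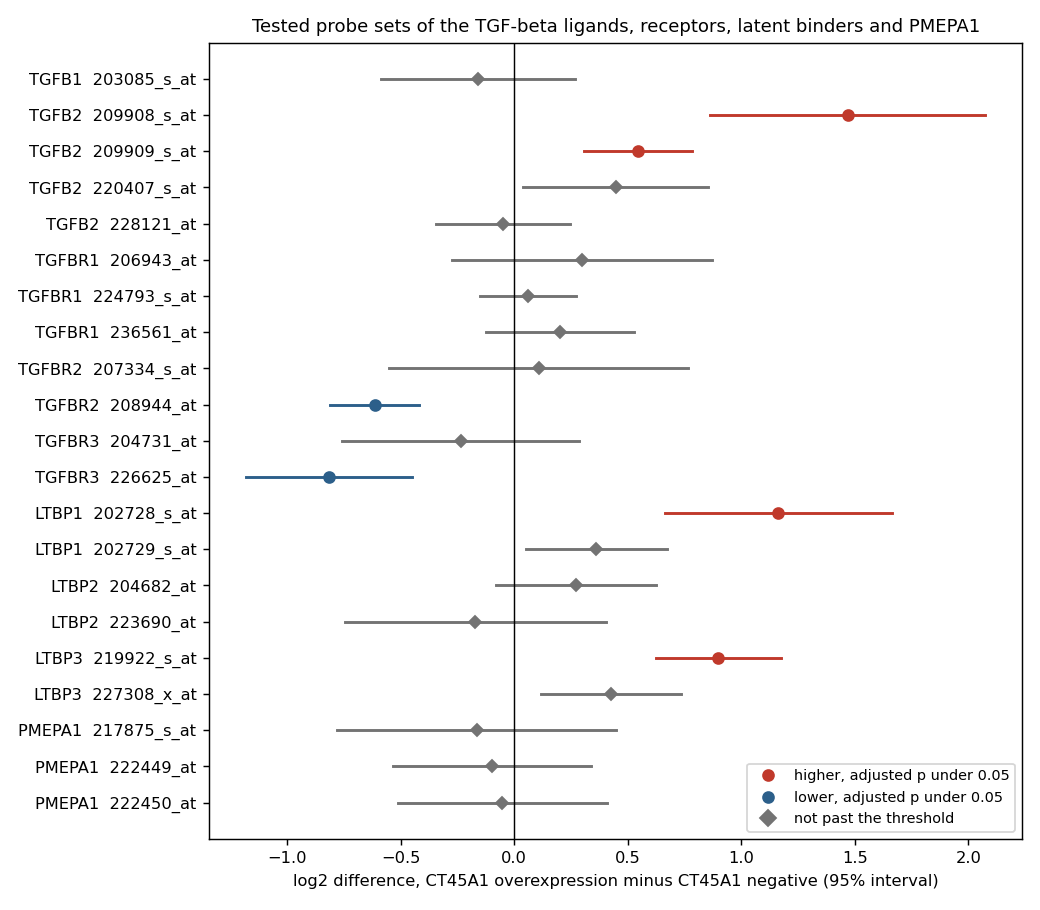
Log2 difference, CT45A1 overexpression minus CT45A1 negative, for the 21 tested probe sets, with 95% intervals from limma as bars; circles passed an adjusted p of 0.05 (red higher, blue lower) and grey diamonds did not. Probe sets of 1 gene often lie apart, as for TGFB2, where the differences run from -0.05 to 1.47.

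Among the ligands, TGFB2 was the one with probe sets past the threshold. TGFB2 is the isoform that depends most on betaglycan for binding to its receptors. Probe set 209908_s_at had signals of 251, 211 and 154 on the overexpression arrays, against 77.7, 57.7 and 85.4 on the negative arrays. All overexpression arrays lay above all negative arrays, and 1 negative array lay below its own array's median. Mean log2 signals were 7.65 ± 0.36 in overexpression cells and 6.18 ± 0.29 in negative cells (SD, n = 3 arrays each), a difference of 1.47 (SE 0.27, 95% interval 0.86 to 2.08, limma adjusted p = 0.0221). The negative mean fell below the mean array median of 6.20, so the mean fold is given as a bound. Signal was on average at least 2.56-fold higher in overexpression cells, with dim arrays set at their median. This bound concerns dim signal alone and not the spread between arrays, which the 95% interval gives. In RNA from a whole culture, more cells carrying a transcript and more transcript per cell cannot be told apart.

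Probe set 209909_s_at, a brighter measure of TGFB2, had signals of 1423, 1263 and 1113 on overexpression arrays, against 801, 891 and 904 on negative arrays. The groups again did not overlap. The means were 10.30 ± 0.18 in overexpression cells and 9.76 ± 0.10 in negative cells, a difference of 0.54 (SE 0.11, 95% interval 0.31 to 0.78, limma adjusted p = 0.0280), or 1.46-fold. Probe set 220407_s_at had 648, 776 and 445 on overexpression arrays and 474, 464 and 402 on negative arrays, with overlap. Its difference was 0.45 (95% interval 0.04 to 0.85, adjusted p = 0.202) and did not pass.

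The remaining tested TGFB2 probe set, 228121_at, gave another picture. It had 1457, 1101 and 979 on overexpression arrays, against 1167, 1282 and 1165 on negative arrays, so that the negative arrays lay within the range of the overexpression arrays. The difference was -0.05 (95% interval -0.35 to 0.25, adjusted p = 0.869). Within each array, the log2 ratio of 209908_s_at to 228121_at was on average at least 1.41 higher in overexpression cells, with the dim negative arrays at their median, and that of 209909_s_at to 228121_at was 0.59 higher. In both ratios the 3 overexpression arrays lay above the 3 negative ones, so the probe sets of this gene moved unequally. These ratios were formed after the signals had been seen and carry no test. Where on the transcript each probe set lies was not analysed here. The dim probe set 220406_at was not tested and had 46.0, 61.6 and 49.6 on overexpression arrays and 23.2, 23.5 and 52.5 on negative arrays.

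The calls at TGFB2 depended on the arrays used. Both probe sets lost the call without overexpression replicate 1 (differences 1.31 and 0.46, adjusted p = 0.100 and 0.0988), without overexpression replicate 2 (1.44 and 0.54, adjusted p = 0.107 and 0.111), without negative replicate 1 (1.52 and 0.49, adjusted p = 0.0618 and 0.0941) and without negative replicate 2 (1.30 and 0.57, adjusted p = 0.0521 and 0.0587). Adding the actin ratio as a covariate gave 1.54 and 0.45 (limma adjusted p = 0.160 and 0.252).

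TGFB1, the most widely expressed isoform, had 1 tested probe set. Probe set 203085_s_at had 189.6, 165.4 and 187.5 on overexpression arrays, against 163.9, 206.6 and 241.9 on negative arrays, and the groups overlapped. The difference was -0.16 (SE 0.19, 95% interval -0.59 to 0.27, limma adjusted p = 0.682). The other probe set, 203084_at, was below the array median on every array and was not tested, with 5.75, 57.3 and 50.7 on overexpression arrays and 55.5, 48.1 and 2.06 on negative arrays.

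**Figure D2:**
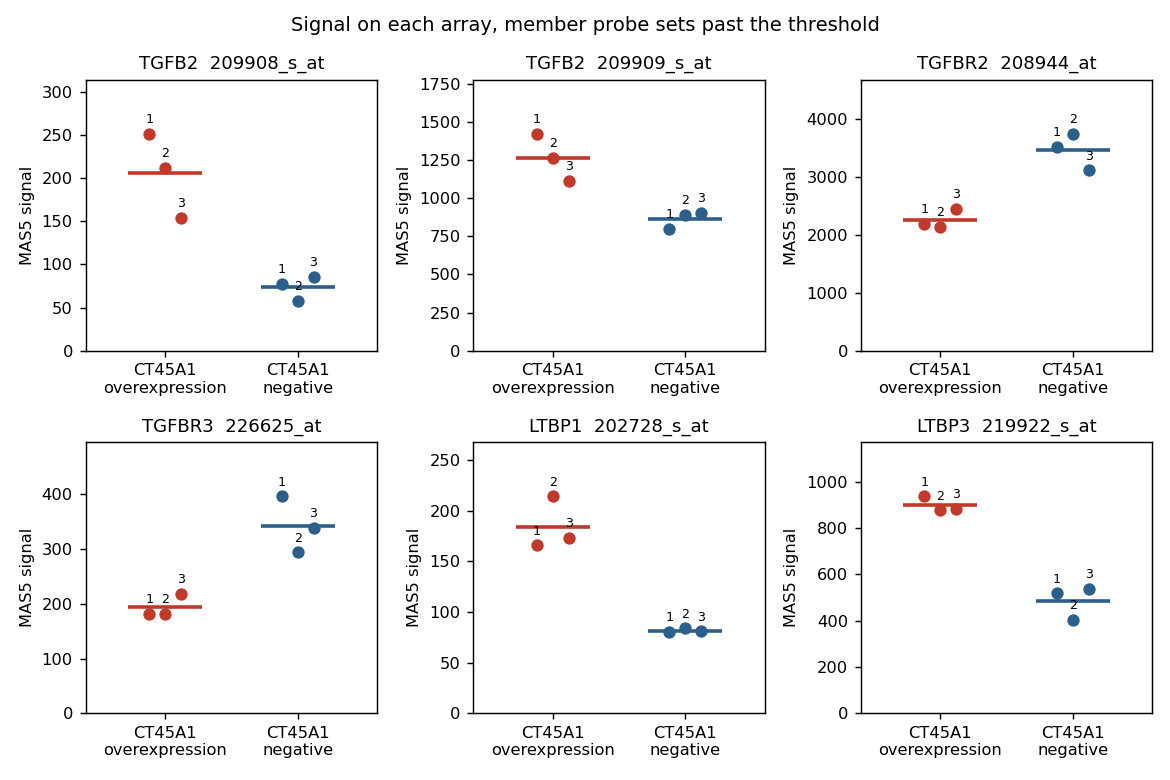
MAS5 signal (linear, axis from 0) on each array for the 6 probe sets past the threshold, CT45A1 overexpression left and CT45A1 negative right, with replicate numbers beside the points and the group mean as a line. In none of the 6 panels do the groups overlap; TGFB2, LTBP1 and LTBP3 lie higher in overexpression cells and TGFBR2 and TGFBR3 lower.

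Among the receptors, TGFBR2 and TGFBR3 each fell at 1 of 2 tested probe sets, and TGFBR1 had no call. TGFBR2 is the ligand-binding kinase without which the canonical signal does not start. Its probe set 208944_at had 2193, 2132 and 2453 on overexpression arrays, against 3528, 3749 and 3115 on negative arrays. Every overexpression array lay below every negative array. The means were 11.14 ± 0.11 in overexpression cells and 11.75 ± 0.14 in negative cells, a difference of -0.62 (SE 0.09, 95% interval -0.81 to -0.42, limma adjusted p = 0.00761), or 1.53-fold lower in overexpression cells. The difference passed whichever single array was left out, as well as after adding the actin ratio as a covariate, where it was -0.76 (adjusted p = 0.0304). The dimmer probe set 207334_s_at had 123, 87.8 and 81.4 on overexpression arrays and 86.0, 78.9 and 103 on negative arrays. These groups overlapped. Its difference was 0.11 (95% interval -0.55 to 0.77, adjusted p = 0.872). This interval overlaps that of the brighter probe set but does not reach its difference of -0.62.

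TGFBR3, the co-receptor betaglycan, was lower at probe set 226625_at. The signals were 182, 182 and 218 on overexpression arrays, against 396, 294 and 338 on negative arrays. The groups did not overlap. The difference was -0.82 (SE 0.16, 95% interval -1.18 to -0.45, limma adjusted p = 0.0300), or 1.76-fold lower in overexpression cells. Probe set 204731_at had 125, 205 and 180 on overexpression arrays and 168, 182 and 246 on negative arrays, with overlap and a difference of -0.24 (95% interval -0.76 to 0.29, adjusted p = 0.607). The call at 226625_at was lost without overexpression replicate 1 (-0.77, adjusted p = 0.0997), overexpression replicate 2 (-0.77, adjusted p = 0.118) or negative replicate 1 (-0.71, adjusted p = 0.107). After adding the actin ratio as a covariate, it was -0.64 (adjusted p = 0.303).

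TGFBR1 encodes the kinase that passes the signal to the SMADs. Its brightest probe set, 224793_s_at, had 5751, 5657 and 4707 on overexpression arrays, against 5325, 5523 and 4587 on negative arrays. The groups overlapped, and replicate 3 was the lowest of each group. The difference was 0.06 (95% interval -0.15 to 0.27, limma adjusted p = 0.762), and centring on the array medians turned its sign, to -0.08. Probe set 236561_at had 662, 602 and 558 on overexpression arrays and 423, 559 and 619 on negative arrays, a difference of 0.20 (adjusted p = 0.469). Probe set 206943_at had 106, 110 and 139 on overexpression arrays and 83.4, 106 and 98.7 on negative arrays, a difference of 0.30 (adjusted p = 0.544) that did not pass although the lowest overexpression array lay above the highest negative one.

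Of the latent binders, LTBP1 and LTBP3 each rose at 1 of 2 tested probe sets. LTBP1 carries latent TGF-beta into fibrillin and fibronectin fibres. Its probe set 202728_s_at had 166, 214 and 173 on overexpression arrays, against 80.3, 83.8 and 80.8 on negative arrays. All overexpression arrays lay above the negative arrays, which lay close together just above the array median. The means were 7.52 ± 0.20 in overexpression cells and 6.35 ± 0.03 in negative cells, a difference of 1.16 (SE 0.23, 95% interval 0.66 to 1.67, limma adjusted p = 0.0262), or 2.24-fold. The brighter probe set 202729_s_at had 667, 488 and 550 on overexpression arrays, against 436, 487 and 397 on negative arrays. Overexpression replicate 2 and negative replicate 2 were nearly equal there, and the difference of 0.36 (SE 0.14, 95% interval 0.05 to 0.67, adjusted p = 0.178) did not pass. The log2 ratio of 202728_s_at to 202729_s_at within each array was 0.80 higher in overexpression cells on average, with no overlap of the groups. It too was formed after the signals had been seen.

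The LTBP1 call was lost without any single array except negative replicate 3. The differences without overexpression replicates 1, 2 and 3 were 1.24, 1.05 and 1.20 (limma adjusted p = 0.0764, 0.134 and 0.0647). Without negative replicates 1 and 2 they were 1.15 and 1.18 (adjusted p = 0.0688 and 0.0560). After adding the actin ratio as a covariate, the difference was 1.16 (adjusted p = 0.203), and with no filter on dim probe sets the adjusted p was 0.0525.

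LTBP3, which binds latent TGF-beta and is known for its role in bone and tooth formation, passed under more settings than the other genes that were higher. Probe set 219922_s_at had 936, 876 and 884 on overexpression arrays, against 518, 402 and 537 on negative arrays. The lowest overexpression array lay well above the highest negative array. The means were 9.81 ± 0.05 in overexpression cells and 8.91 ± 0.23 in negative cells, a difference of 0.90 (SE 0.12, 95% interval 0.62 to 1.17, limma adjusted p = 0.00662), or 1.86-fold. It passed whichever single array was left out, as well as after adding the actin ratio as a covariate (1.13, adjusted p = 0.0244). Probe set 227308_x_at had 680, 743 and 574 on overexpression arrays, against 419, 553 and 517 on negative arrays. Its groups did not overlap either, but the difference of 0.42 (95% interval 0.12 to 0.73, adjusted p = 0.124) did not pass. The ratio of the first to the second within arrays differed by 0.47, with overlap. Probe set 237144_at was dim on every array and not tested, with 11.0, 22.9 and 62.7 on overexpression arrays and 58.7, 52.5 and 56.4 on negative arrays.

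LTBP2 and LTBP4 had no probe set past the threshold. LTBP2 is a fibrillin-associated protein that, unlike LTBP1 and LTBP3, does not bind latent TGF-beta. Its probe set 204682_at had 2257, 2017 and 1755 on overexpression arrays, against 1694, 2086 and 1279 on negative arrays, a difference of 0.27 (95% interval -0.08 to 0.63, limma adjusted p = 0.354). Probe set 223690_at had 1300, 926 and 744 on overexpression arrays, against 1060, 1614 and 747 on negative arrays, a difference of -0.17 (95% interval -0.75 to 0.41, adjusted p = 0.755). The groups overlapped at both, and replicate 3 was the lowest array of each group at both. LTBP4, a binder of latent TGFB1 that also organises elastic fibres, fell below the filter. Its 4 probe sets had signals from 7.60 to 100.3, and the array median was exceeded only at 210628_x_at, on 2 negative arrays.

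PMEPA1, a membrane protein that is induced by TGF-beta and binds SMAD2 and SMAD3 to keep them from the receptor, was bright in both groups. Probe set 222450_at had 14906, 11986 and 9475 on overexpression arrays, against 13511, 16053 and 8704 on negative arrays. The arrays of each group were spread widely, and the groups overlapped. The difference was -0.05 (SE 0.21, 95% interval -0.51 to 0.41, limma adjusted p = 0.917). Probe set 222449_at had 11596, 9139 and 7736 on overexpression arrays and 9988, 13576 and 7400 on negative arrays, a difference of -0.10 (adjusted p = 0.821). Probe set 217875_s_at had 4477, 3155 and 2451 on overexpression arrays and 3537, 5682 and 2428 on negative arrays, a difference of -0.17 (adjusted p = 0.780). At all 3 probe sets overexpression replicate 1 and negative replicate 2 were the highest arrays of their groups, and replicate 3 was the lowest of each.

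The PMEPA1 signals also differed with the actin ratio within the groups. In overexpression cells the ratio was lowest on replicate 1, which had the highest PMEPA1 signal, and highest on replicate 3, which had the lowest. In negative cells the ratio was lowest on replicate 2 and highest on replicate 3, where the signal was highest and lowest. With the ratio as a covariate the differences at 217875_s_at, 222449_at and 222450_at were -1.44, -1.01 and -1.05 (limma adjusted p = 0.00822, 0.00726 and 0.00159), and LTBP2 223690_at was at -1.34 (adjusted p = 0.0120). That fit called 702 of all tested probe sets (2.54%), and among the 21 here it called 1 higher (LTBP3) and 5 lower. Since the ratio did not overlap between the groups, these adjusted differences compare the groups at a ratio outside the range of at least 1 of them. The GAPDH 3′/5′ ratio was lowest on replicate 2 and highest on replicate 3 in both groups, so in overexpression cells it did not follow the actin ratio.

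**Figure D3:**
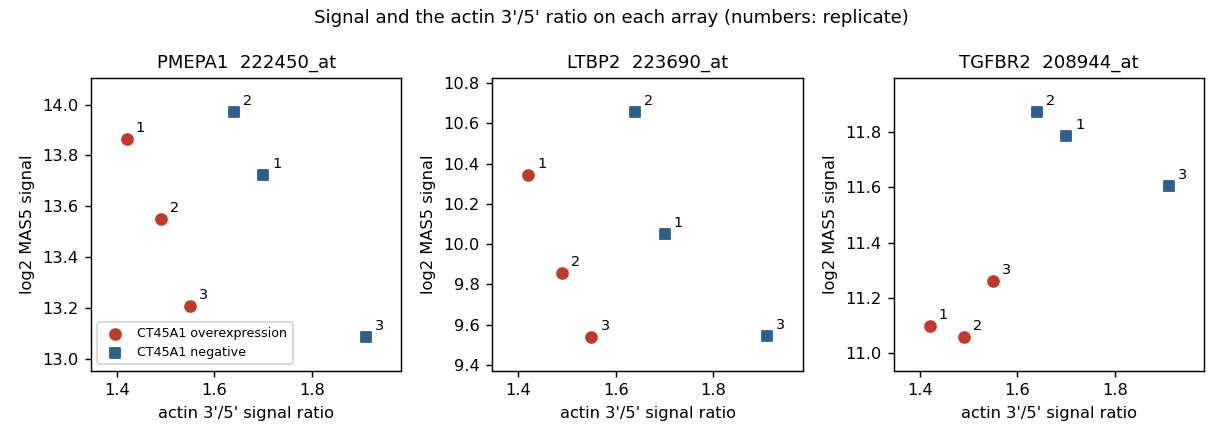
Log2 MAS5 signal against the actin 3′/5′ signal ratio on each of the 6 arrays for PMEPA1, LTBP2 and TGFBR2, with red circles for CT45A1 overexpression, blue squares for CT45A1 negative and replicate numbers beside the points. Within each group the PMEPA1 and LTBP2 signals lie lower where the ratio is higher, while the TGFBR2 groups lie apart along the signal axis.

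The other genes of the pathway were set beside these in 5 lists, and few of their probe sets passed. In the list of genes that activate latent TGF-beta (integrins, thrombospondin 1, furin and proteases), 0 of 32 tested probe sets passed, over 11 of the 16 genes. In limma's fit 7 (21.9%) had an unadjusted p under 0.05, against 5719 of all 27618 (20.7%), and the groups did not overlap at 8 (25.0%, against 26.6% of all). Those with the smallest p were MMP14, a membrane metalloproteinase, at 160020_at (-0.49, limma adjusted p = 0.0709, other probe sets -0.29, -0.21 and -0.67) and BMP1, a procollagen protease, at 202701_at (0.52, adjusted p = 0.0994, other probe sets 0.65 and 0.78). After centring on the array medians, MMP14 passed at 160020_at (-0.63, adjusted p = 0.0144) and at 217279_x_at (-0.82, adjusted p = 0.0363), and 217279_x_at also passed without negative replicate 3 (-0.88, adjusted p = 0.0455). The list's median difference was 0.01.

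Of the matrix partners of latent complexes (fibrillins, fibronectin, fibulins and others), 0 of 22 tested probe sets passed, over 7 of 12 genes, and 1 (4.55%) had an unadjusted p under 0.05 in limma's fit, against 20.7% of all tested probe sets. Their median difference was 0.13, with 20 probe sets above 0 and 2 below (90.9% above, against 55.5% of all). After centring on the array medians 9 were above 0 and 13 below. Centring lowers all differences alike, so the share above 0 over all tested probe sets falls too, by how much was not counted. The 22 probe sets cover 7 genes, with several of FN1 alone, so they are not independent. FBN2, a fibrillin, was at -0.27 at probe set 203184_at (limma adjusted p = 0.0611) and at 0.13 at its other one. The first passed after centring (-0.41, adjusted p = 0.0101) and with a filter at the 75th percentile (adjusted p = 0.0415). FBLN1, a fibulin, was at 0.52 at 201787_at (adjusted p = 0.247), with 0.03, 0.27 and 0.04 at its other probe sets.

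Of the other ligands, receptors and antagonists of the family, 0 of 21 tested probe sets passed, over 10 of 14 genes, with a median difference of -0.13. In limma's fit 4 (19.0%) had an unadjusted p under 0.05, against 20.7% of all tested probe sets. FST, the secreted activin antagonist follistatin, was at -0.56 at 207345_at (limma adjusted p = 0.0717) and at -0.39 and -0.51 at its other probe sets. All 3 passed with the arrays centred on their medians (-0.71, -0.54 and -0.65, adjusted p = 0.0165, 0.0167 and 0.0434), with the actin covariate (-1.19, -0.89 and -1.41, adjusted p = 0.00552, 0.00378 and 0.000964) and without negative replicate 3 (-0.72, -0.51 and -0.73, adjusted p = 0.0202, 0.0291 and 0.0292). ACVR1B, an activin type I receptor, was at -0.61 at 205209_at (adjusted p = 0.190), with -0.31 and 0.19 at its other probe sets.

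Of the SMADs and their regulators, 1 of 53 tested probe sets was higher and 1 lower, over 17 of 18 genes, with a median difference of 0.00. That is 3.8% past the threshold, against 3.23% of all tested probe sets, and the groups did not overlap at 13 (24.5%, against 26.6%). SMAD3, the SMAD that drives most TGF-beta target genes, had 312, 320 and 249 at 205397_x_at on overexpression arrays, against 169, 189 and 148 on negative arrays. The groups did not overlap, and the difference was 0.80 (limma adjusted p = 0.0395). Its other 3 probe sets were at 0.23, 0.24 and 0.11 and did not pass. The call was lost whichever single array was left out, with differences of 0.70 to 0.91. It was also lost with the actin covariate (0.39, adjusted p = 0.541), quantile normalization (0.68, adjusted p = 0.0677) and cyclic loess (0.69, adjusted p = 0.0660). FKBP1A, an immunophilin that binds TGFBR1 and keeps it inactive without ligand, had 553, 557 and 577 at 210186_s_at on overexpression arrays, against 990, 770 and 765 on negative arrays. It fell by 0.57 (adjusted p = 0.0326), with -0.57, -0.34 and -0.26 at its other probe sets, and the call was kept without negative replicate 3 but lost without any other single array and with the actin covariate (-0.66, adjusted p = 0.146). Its probe set 214119_s_at passed after centring (-0.72, adjusted p = 0.0171), with the actin covariate (-1.13, adjusted p = 0.0149) and without negative replicate 3 (-0.74, adjusted p = 0.0166). SMAD7, the inhibitory SMAD, was at 0.11 (95% interval -0.13 to 0.35, adjusted p = 0.611) and is named because of its role, with its value already seen.

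Of the SMAD3-dependent target genes, 4 of 46 tested probe sets were higher (8.7%, against 1.89% of all) and 0 lower (against 1.34%), over 21 of 24 genes. The groups did not overlap at 13 (28.3%, against 26.6% of all). In limma's fit 18 (39.1%, against 20.7%) had an unadjusted p under 0.05. This list holds PMEPA1 and LTBP2 as well. It was chosen with earlier results of these arrays known, so none of its shares says that it stands apart. Its median difference was 0.22, with 32 probe sets above 0 and 14 below (69.6% above, against 55.5% of all), and 0.07 after centring. Centring moves the median over all tested probe sets down by as much. COL1A1, a chain of type I collagen, had 3158, 3450 and 2625 at 1556499_s_at on overexpression arrays, against 1027, 1166 and 1085 on negative arrays. This was a difference of 1.49 with no overlap (limma adjusted p = 0.000394), and its other probe sets were at 0.97, 1.43 and 0.20 without passing. CCN2, a matricellular growth factor, had 1838, 1997 and 1838 on overexpression arrays, against 971, 1262 and 847 on negative arrays, a difference of 0.90 (adjusted p = 0.00784). TGFBI, a secreted matrix protein named for its induction by TGF-beta, had 14145, 14240 and 13780 on overexpression arrays, against 11072, 10992 and 10869 on negative arrays, a difference of 0.36 (adjusted p = 0.00772). BHLHE40, a transcriptional repressor, was 0.44 higher at 201170_s_at (adjusted p = 0.0237) and at 0.74 at its other probe set (adjusted p = 0.0641).

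The target genes' calls had limits of the same kind. After adding the actin ratio as a covariate, COL1A1 stayed past the threshold (1.33, limma adjusted p = 0.00742), while CCN2 (0.49, adjusted p = 0.199), TGFBI (0.32, adjusted p = 0.0904) and BHLHE40 (0.19, adjusted p = 0.427) did not. Without overexpression replicate 2, CCN2 (0.86, adjusted p = 0.0513), TGFBI (0.35, adjusted p = 0.0549) and BHLHE40 (0.42, adjusted p = 0.105) lost their calls. BHLHE40 also lost it without overexpression replicates 1 and 3 and negative replicate 1, and after centring (0.29, adjusted p = 0.0678). Over the 162 tested probe sets of the 5 lists together, the fit with the actin covariate called 2 higher and 24 lower, against 5 and 1 as reported. The 24 include 4 probe sets of PMEPA1 and LTBP2. Over all 27618 tested probe sets the same fit called 390 higher and 312 lower, against 522 and 370 as reported.

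**Figure D4:**
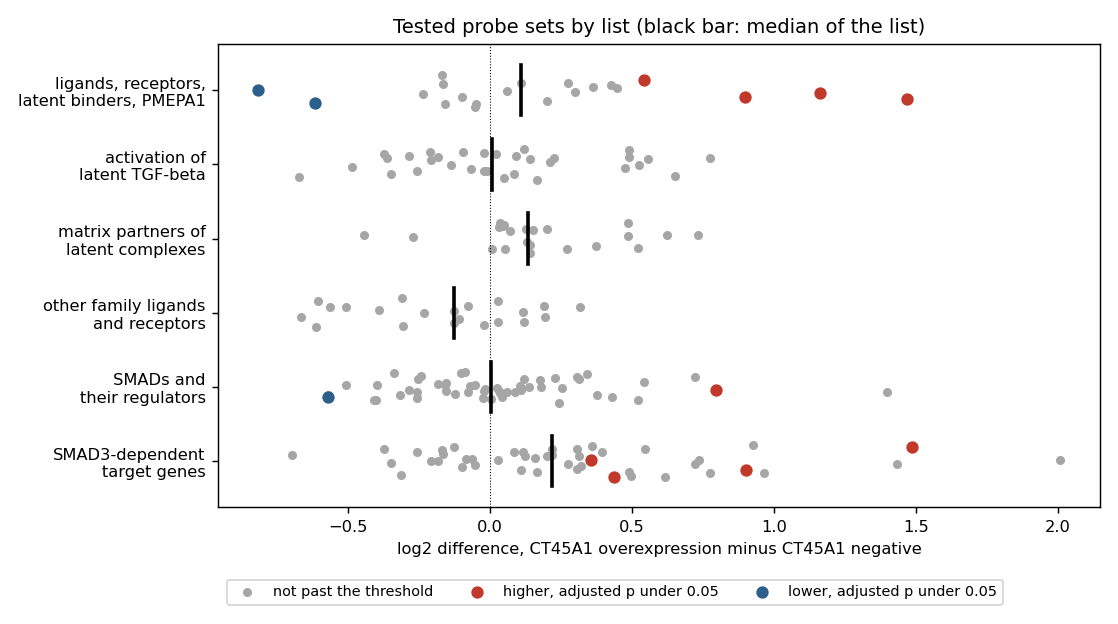
Log2 difference, CT45A1 overexpression minus CT45A1 negative, of every tested probe set of the genes described here (top) and of the 5 other lists; grey points did not pass, red passed higher, blue passed lower, and the black bar is the list's median. The medians lie between -0.13 and 0.22.

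The 6 calls differed in how many processing settings kept them. TGFBR2 passed in 17 of 18 settings and LTBP3 in 16 of the 17 in which its probe set was tested. TGFBR3 passed in 11 of 17, TGFB2 in 9 of 15 and 10 of 16 at its 2 probe sets, and LTBP1 in 7 of 15. No setting turned the direction of any of the 6, but only quantile normalization, cyclic loess and the actin covariate could have done so. Centring on the array medians lowers all differences by 0.14, which is less than the smallest rise of 0.54. The filter, eBayes, block and probe set choices leave a difference unchanged. Groups that do not overlap keep their direction under an offset or when an array is dropped.

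**Figure D5:**
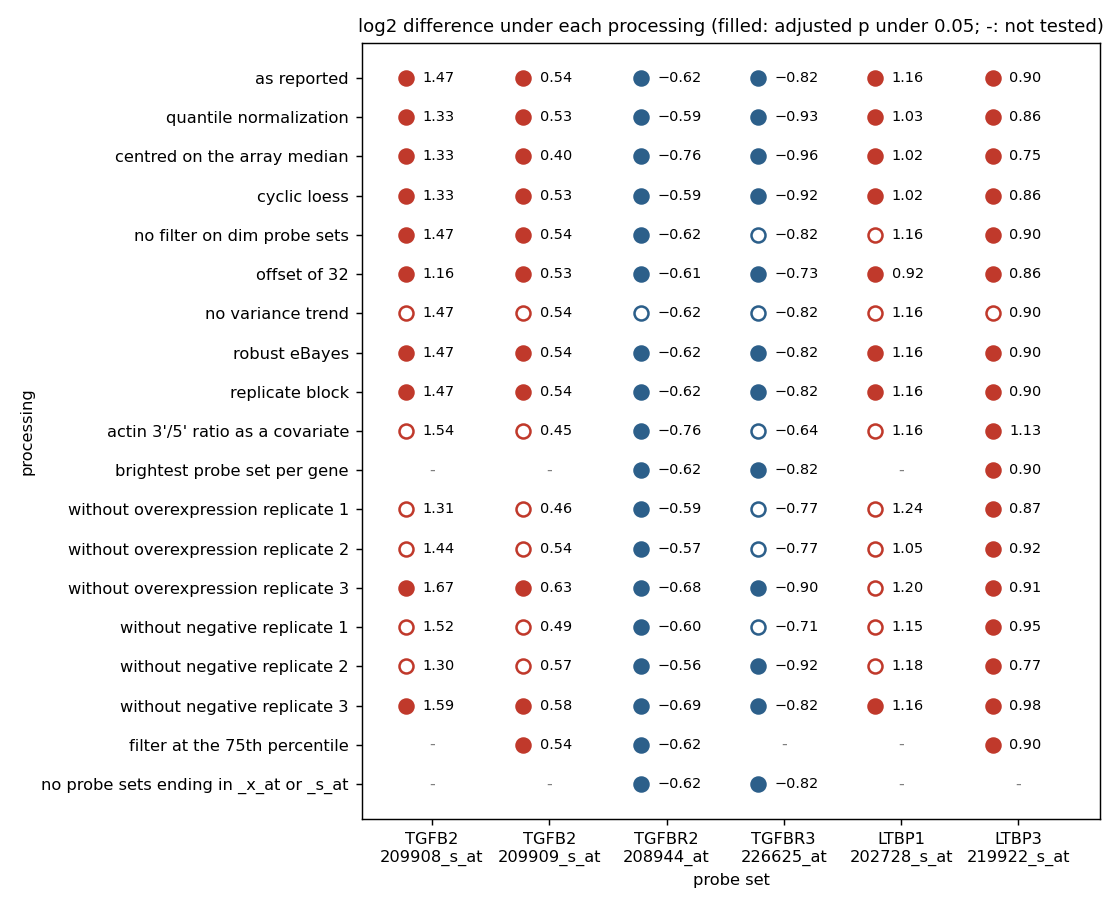
Log2 difference of the 6 probe sets past the threshold (columns) as reported and under 18 other settings (rows); filled circles passed an adjusted p of 0.05, open ones did not, red is higher and blue lower in CT45A1 overexpression, and a dash marks settings in which the probe set was not tested. The signs are the same down every column, and without a variance trend none of the 6 passed.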

How the data were processed

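The authors deposited 1 linear intensity per probe set and array, a MAS5 signal. The submitters' processing notes name MAS5 and the package affy. Versions and a genome build are not given in the sources used here. Of the 54675 deposited probe sets, 62 controls were left out. Of the others, 41091 had 1 gene symbol in the platform annotation, 1801 had several and 11721 had none listed. Symbols were updated through Entrez identifiers in RefSeq's GRCh38.p14 table, and probe sets with several symbols name no gene here, except the CT45 family.

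Intensities were taken to log2 with no offset. Probe sets above the array median on at least 3 of 6 arrays were kept, which left 27618. Groups and replicate numbers came from the sample titles. The limma fit (lmFit, 2 group means, eBayes with trend) used all 6 arrays, with two-sided p-values adjusted by Benjamini-Hochberg over all probe sets kept. The fit was tested on simulated arrays. SDs are over 3 arrays, and standard errors are limma's. A group mean below the mean array median was treated as dim, and the fold was given against the higher of signal and array median on each array. Motifs were counted as exact matches in the 250 bases before each RefSeq start.

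All probe sets of the 10 genes are given. Of each other list, up to 4 genes with the largest differences past the threshold are named, or, where none passed, the 1 or 2 with the smallest p. The genes and lists were chosen with earlier results of these data known. Other settings tried were the scaling (quantile, array median, cyclic loess), the filter (none, or the 75th percentile), 32 added before log2, eBayes without trend or robust, the replicate block, the actin ratio as covariate, the gene's brightest probe set, leaving out _x_at and _s_at probe sets, and dropping each array in turn. Versions were R 4.3.3, limma 3.58.1 and Python 3.11.15.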

Additional observations from a re-analysis of the deposited data

How the results depend on the processing

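Probe sets past the threshold numbered 892 over all, 6 of the 21 at the 10 genes described and 6 of the 162 in the pathway lists, which hold 5 probe sets of PMEPA1 and LTBP2 as well. In the same order the counts were 2975, 6 and 21 with arrays centred on their medians, 486, 4 and 4 with no filter, 934, 3 and 6 with a filter at the 75th percentile, 4, 0 and 0 with no variance trend, 702, 6 and 26 with the actin covariate (4 probe sets of PMEPA1 and LTBP2 are in both), 457, 3 and 4 with the brightest probe set per gene, and 446, 2 and 2 when _x_at and _s_at probe sets were left out. Of the pathway list calls, 5 were higher and 1 lower as reported. They were 5 and 16 after centring, and 2 and 24 with the actin covariate. Over all tested probe sets, 522 were higher and 370 lower as reported, 387 and 2588 after centring, and 390 and 312 with the actin covariate. The turn to lower calls after centring was therefore found over the whole array and is not particular to the lists. The filter, brightest and name settings test more or fewer probe sets by construction, and the cause of the other shifts was not tested. Leaving out 1 array gave 159 to 1171, 2 to 6 and 1 to 13. Over all probe sets the counts were 221, 159 and 460 without overexpression replicates 1, 2 and 3, and 255, 401 and 1171 without negative replicates 1, 2 and 3. For the pathway lists they were 3, 1 and 5 and then 3, 4 and 13. Quantile normalization, cyclic loess, an offset of 32 and robust eBayes gave 771 to 973 over all, 6 and 6 or 7. No direction of a tested member probe set that passed was turned, which only quantile normalization, cyclic loess and the actin covariate could have done. Of the 98 alternative results for these probe sets, 70 kept the call and 28 lost it. Of 250 alternative results for those that did not pass, 246 stayed so, and the 4 that passed (PMEPA1 and LTBP2) came with the actin covariate. Without a variance trend TGFBR2 and LTBP3 had adjusted p = 0.0854 and 0.0676 in limma. With no filter the 4 calls were at TGFB2, LTBP3 and TGFBR2, and dim probe sets such as those of LTBP4 had none.

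The sample titles give replicate numbers but not whether same-numbered arrays of the 2 groups were paired. Deviations from the group means correlated at -0.01, -0.01 and 0.10 between same-numbered arrays. Between other arrays of the 2 groups they correlated at -0.10 to 0.11. So few arrays cannot settle whether the numbers pair them. With the number as a replicate block 1189 probe sets passed over all, 6 at the genes described and 17 in the pathway lists.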

Other observations

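At PMEPA1 the overexpression arrays fell in the order replicate 1, 2, 3 from high to low, and the negative arrays in the order 2, 1, 3, an order noticed after the signals had been seen and counted with no test. Of all tested probe sets, 1466 of 27618 (5.31%) had it. It was present at 7 of the 21 tested probe sets described here (33.3%): all 3 of PMEPA1, both of LTBP2, TGFB2 228121_at and TGFBR1 224793_s_at. It was present at 24 of 46 tested probe sets of SMAD3-dependent target genes (52.2%), 10 of 22 of the matrix partners (45.5%, with all tested FN1 probe sets among them) and 12 of 32 of the activators of latent TGF-beta (37.5%). Among the other family ligands and receptors it was at 3 of 21 (14.3%), and among SMADs and regulators at 6 of 53 (11.3%). The order was taken from the 3 PMEPA1 probe sets, which have it by definition and are counted in the 7 and in the 24. Probe sets of 1 gene share their transcripts and the lists share genes, so these counts are not independent. The actin 3′/5′ ratio has the reverse order within each group, lowest on overexpression replicate 1 and negative replicate 2 and highest on replicate 3 of both. The GAPDH 3′/5′ ratio does not have it in overexpression cells, with 1.01, 0.969 and 1.04 on replicates 1, 2 and 3. On negative replicates 1, 2 and 3 it was 1.09, 1.05 and 1.18. A link of the order to RNA quality was not tested.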
